A study of Homo sapiens with 18 samples.

Results

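The genes described here are 41 genes of homologous recombination, the Fanconi anaemia pathway and the DNA damage checkpoint, out of 60603 genes in each count table. They were found by gene symbol through their Ensembl identifiers in both count tables, and all 41 were present in both. Poly(A) RNA had been sequenced from MDA-MB-231 cells, an established human line of triple-negative breast cancer, in 9 conditions with 2 libraries each. In the inducible system the cells carried pInducer20, a lentiviral vector that expresses GFP or ZMYND8 when doxycycline is added, and were selected for the vector. All 6 of its conditions had 250 ng/mL doxycycline, and GFP and ZMYND8 cells were either left without doxorubicin or given 0.6 µM doxorubicin for 6 or 48 h. The transient system had 3 conditions. Control cells were compared with cells that received 0.6 µM doxorubicin during 48 h, and with a drug-treated group labelled for transient FLAG-ZMYND8 overexpression. The study's methods name a pCMV-FLAG plasmid for such overexpression, and this group is called labelled for the plasmid below. ZMYND8 is a chromatin reader protein of acetylated histones, and doxorubicin is an anthracycline that traps topoisomerase II on DNA and leaves double-strand breaks. Each inducible construct was present in 1 line, so an effect of ZMYND8 and any other difference between both lines cannot be told apart. The transient system had no group labelled ZMYND8 without doxorubicin. The study calls the 2 inducible libraries of a condition biological replicates. For the transient libraries no source used here says that they came from separate cultures, so their p-values measure a spread that may be technical.

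Homologous recombination repairs a broken DNA end by copying the sister chromatid. The MRE11-RAD50-NBN complex binds the end, RBBP8 and EXO1 resect it to single-stranded DNA, and BRCA1, PALB2 and BRCA2 prepare that strand for repair. The Fanconi anaemia core complex attaches ubiquitin to FANCI and FANCD2 where a crosslink stalls replication, and ATM and ATR are the kinases that signal breaks and stalled forks to CHEK2 and CHEK1. Many of these genes are transcribed mostly in S phase, when a sister chromatid exists.

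The inducible libraries held 18300628 to 23724398 counts. The transient libraries held 5729294 to 5972396 counts apart from the second doxorubicin library, which held 24713822. ZMYND8 itself, the overexpressed gene, stood at 829.3 to 1001 CPM (a gene's counts per 1000000 counts of its library, scaled for composition by TMM) in the 6 ZMYND8 libraries and at 93.8 to 209.1 CPM in the 6 GFP libraries. With doxorubicin its log2 fold change was -1.11 at 6 h and -0.58 at 48 h in GFP cells, and -0.10 and 0.06 in ZMYND8 cells. The log2 difference between the lines was therefore not constant, at 2.15 untreated, 3.16 at 6 h and 2.785 at 48 h. In the transient system ZMYND8 did not follow its label, with 159.8 and 124.9 CPM in the group labelled for the plasmid, 182 and 122.6 CPM with doxorubicin and 219 and 198.5 CPM in the control. The second libraries of both drug-treated transient groups were closely alike (chi-square divided by its degrees of freedom was 1.386, where the other transient pairs had 9.706 or more), so the labelled group is not treated below as a test of ZMYND8. Transient counts also did not separate the strands, because genes lying antisense to an expressed gene had 1.46 to 1.65 times the read density of the sense gene, against 0.0632 to 0.102 in the inducible libraries. Of the 41 genes, 21 have exon sequence opposite another gene, 11 of them over more than 5% of their exons, and their transient counts can hold reads of both genes. As markers of the line, VIM was at 4481 CPM and CD44 at 1245 CPM in untreated GFP cells, ESR1 at 0.209 CPM and PGR at 0. ERBB2 was at 107.8 CPM. The 5 markers expected in the line were at 234.9 CPM or more in every inducible library. The 7 expected low or absent, ERBB2 among them, summed to 126.1 to 131.4 CPM in untreated GFP cells. Over all inducible libraries COL1A1, CDH1 and PTPRC of that list had mean log2 CPM of 3.59, 2.90 and 0.41, so the list was not absent throughout.

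Per kilobase of exon, the scale on which genes can be compared with each other, the 41 genes ranged in untreated GFP cells from 19.7 ± 1.31 CPM per kb for UBE2T to 0.0911 ± 0.0311 for MDC1 (SD, n = 2 here and below). UBE2T is the ubiquitin-conjugating enzyme of the Fanconi pathway. CHEK1, at 16.2 ± 0.389 CPM per kb, FANCE at 13 ± 0.651 and FANCG at 10.8 ± 0.375 followed, and FANCG did not differ beyond its spread from RBBP8 at 10.8 ± 0.446. BRCA1 was in the middle of the order at 3.81 ± 0.178 CPM per kb, next to BARD1, its partner in a ubiquitin ligase, at 3.68 ± 0.122, and these neighbours did not differ beyond their spread. RAD54B at 0.311 ± 0.0326 and RAD50 at 0.856 ± 0.0314 CPM per kb were low, but 73.8% and 76.9% of their exon length is shared on the same strand with another annotated gene, and reads assigned to both genes were not counted. MDC1, an adaptor at broken chromatin, had 4 to 19 counts in an inducible library and passed the filter on low counts in the inducible system only. All 41 genes were therefore tested in the inducible system and 40 in the transient system.

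**Figure D1:**
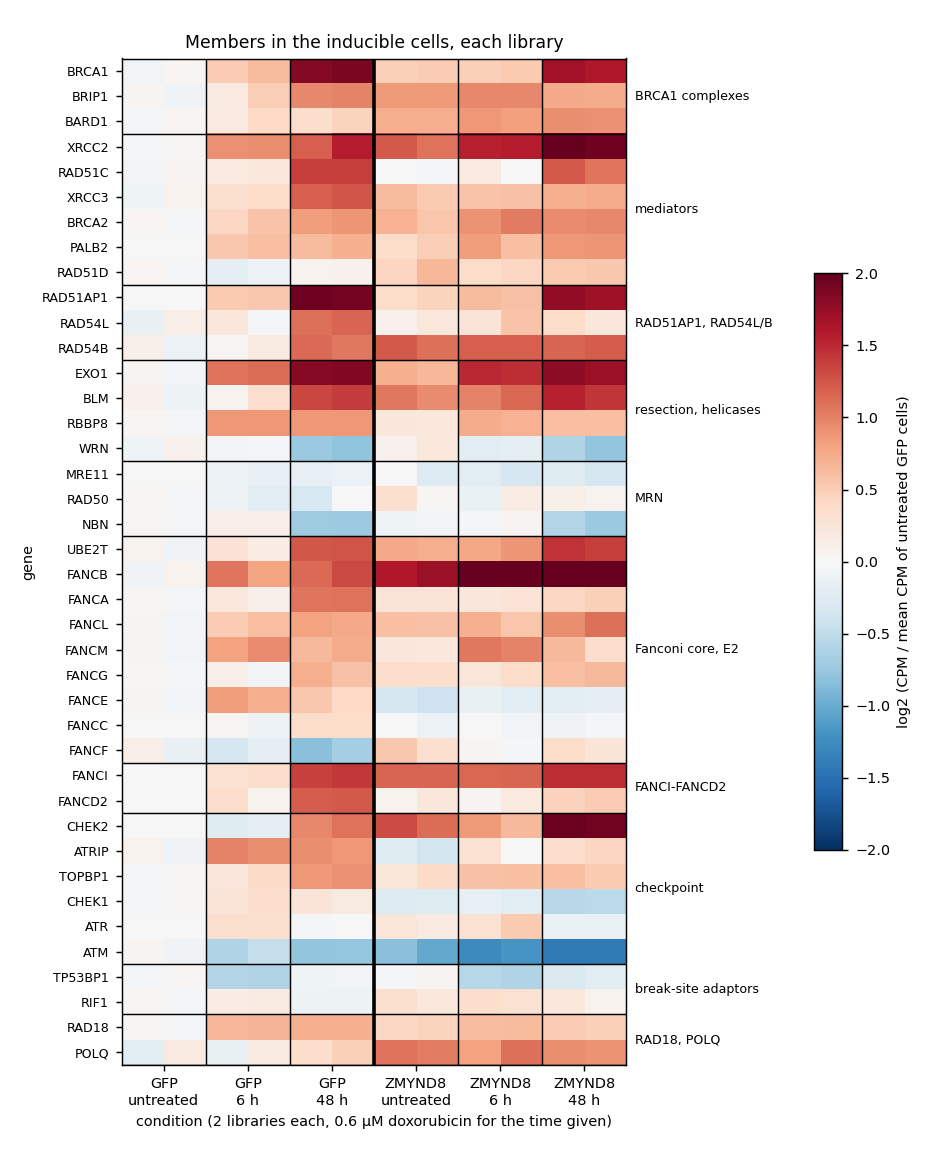
Level of 40 of the 41 genes (rows, grouped by role) in each of the 12 inducible libraries (columns), as log2 of CPM over the mean of untreated GFP cells, so white is no difference and red is higher; MDC1 is left out because its counts are low. The GFP columns turn from near white to red at 48 h for most rows, BRCA1 from 34.3 and 36.6 CPM to 126.7 and 130.7 CPM, while many rows of ZMYND8 cells are red already without the drug.

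Across 48 h of doxorubicin in GFP cells, 30 of the 41 genes rose, 4 fell and 7 were not called at an adjusted p of at most 0.05 (edgeR quasi-likelihood test with Benjamini-Hochberg adjustment over all genes tested). Of all 18801 genes tested, 32.4% were called higher and 31.8% lower, so the drug moved much of the transcriptome and the share called in either direction was 64.2%. The median log2 fold change of the 41 genes was 0.78, against 0.03 over all genes. Their summed level went from 1289 and 1312 CPM to 2035 and 2066 CPM. When libraries were scaled by total counts instead, the median of all genes moved to 0.27, and 34 of the 41 were called higher and 4 lower, against 45.2% and 21.2% of all genes under that scaling. Of 5 marker genes that the line expresses, 4 were lower at 48 h in GFP cells (VIM -1.05, CD44 -0.87 and MSN -1.15 on the log2 scale). Of 7 markers of other cell types or states 4 were higher, among them CDH1 by 3.88, PTPRC by 2.88 and COL1A1 by 0.63, and 1 was lower. PTPRC was near the floor, with a mean log2 CPM of 0.41, and 2 of the 7 were at 0 in at least 1 inducible library. Summed levels were 7236 to 7251 CPM untreated and 3786 to 3908 CPM at 48 h for the first list. For the second list they were 126.1 to 131.4 CPM and 141.9 to 148.4 CPM. The part of both lists in the results for the 41 genes was not tested. In bulk RNA, a change in the share of cells in S phase and a change of RNA in each cell cannot be told apart.

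Genes of the BRCA1 complexes and of the later steps of homologous recombination are given first. RAD51AP1, a DNA-binding protein of homologous recombination, stood at 25.2 and 24.8 CPM in untreated GFP cells, 35.9 and 36.2 CPM at 6 h and 96.8 and 94.1 CPM at 48 h. The 48 h libraries lay above all others, and the log2 fold change from untreated was 1.93 (SE 0.06, edgeR adjusted p = 1.68e-20). BRCA1 stood at 34.3 and 36.6 CPM, then 50.2 and 55.1 CPM at 6 h and 126.7 and 130.7 CPM at 48 h, a log2 fold change of 1.86 (SE 0.06, edgeR adjusted p = 1.56e-20). Its complex partners BRIP1, a helicase, and BARD1 rose by 0.98 and 0.40 on the log2 scale. XRCC2, a mediator of homologous recombination, had 12.2 and 12.4 CPM untreated and 28.1 and 36.5 CPM at 48 h, with a log2 fold change of 1.39 (SE 0.11, edgeR adjusted p = 8.64e-12). RAD51C, another mediator, had 20.5 and 22 CPM untreated, 24.2 and 24.6 CPM at 6 h and 55.2 and 55.7 CPM at 48 h, with a log2 fold change of 1.38 (SE 0.08, edgeR adjusted p = 7.19e-15). RAD51C was not called at 6 h, and its 48 h libraries lay well above the rest. Of the other mediators, XRCC3 rose by 1.22, BRCA2 by 0.86 and PALB2, the bridge between BRCA1 and BRCA2, by 0.68, whereas RAD51D had a log2 fold change of 0.08 and was not called (edgeR adjusted p = 0.473). RAD54L and RAD54B, DNA motor proteins of homologous recombination, rose by 1.14 and 1.10.

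Among the nucleases and helicases, EXO1 stood at 24.2 and 22.6 CPM in untreated GFP cells, 49.5 and 51.1 CPM at 6 h and 83 and 84.5 CPM at 48 h. It separated at both times, and the log2 fold change at 48 h was 1.84 (SE 0.06, edgeR adjusted p = 7.45e-20). BLM rose by 1.36 and RBBP8 by 0.86. WRN, a helicase of the same family as BLM, went the other way, with 22.3 and 25.2 CPM untreated, 22.9 and 23 CPM at 6 h and 14.1 and 13.5 CPM at 48 h (log2 fold change -0.78, SE 0.09, edgeR adjusted p = 4.52e-08). None of the MRE11-RAD50-NBN complex rose. NBN held 55 and 53.1 CPM untreated, 59.3 and 59.2 CPM at 6 h and 32.9 and 32.6 CPM at 48 h, below every earlier library, and its log2 fold change was -0.72 (SE 0.06, edgeR adjusted p = 6.41e-11). MRE11 and RAD50 had log2 fold changes of -0.14 and -0.15 and were not called.

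In the Fanconi pathway 8 of 9 genes of the core complex and its enzyme rose, with UBE2T at 1.25, FANCB at 1.23, FANCA at 1.08, FANCL at 0.78, FANCM at 0.70, FANCG at 0.66, FANCE at 0.47 and FANCC at 0.36 on the log2 scale. FANCF, an adaptor of the core, was the 1 that fell, from 15.5 and 12.8 CPM to 11.2 and 12.3 CPM at 6 h and 7.95 and 8.83 CPM at 48 h (log2 fold change -0.76, SE 0.12, edgeR adjusted p = 3.76e-06). Both genes of the complex that receives the ubiquitin rose. FANCI stood at 56.3 and 55.1 CPM untreated, 69 and 70.9 CPM at 6 h and 143.5 and 148.9 CPM at 48 h, a log2 fold change of 1.39 (SE 0.05, edgeR adjusted p = 8.37e-20), and FANCD2 rose by 1.22.

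Of the checkpoint genes, CHEK2, TOPBP1, ATRIP and CHEK1 rose by 1.02, 0.89, 0.90 and 0.22 on the log2 scale. ATM fell, with 135.1 and 124 CPM untreated, 85.5 and 93.5 CPM at 6 h and 75.3 and 75.5 CPM at 48 h. Its groups did not overlap at either time, and the log2 fold change at 48 h was -0.78 (SE 0.06, edgeR adjusted p = 1.97e-12). ATR, the kinase recruited by ATRIP, had a log2 fold change of -0.02 at 48 h and was not called. The adaptors at broken chromatin, TP53BP1, RIF1 and MDC1, were not called, with log2 fold changes of -0.07, -0.11 and -0.83. RAD18, a ubiquitin ligase of lesion bypass, and POLQ, the polymerase of end joining through short homologies, rose by 0.72 and 0.42.

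**Figure D2:**
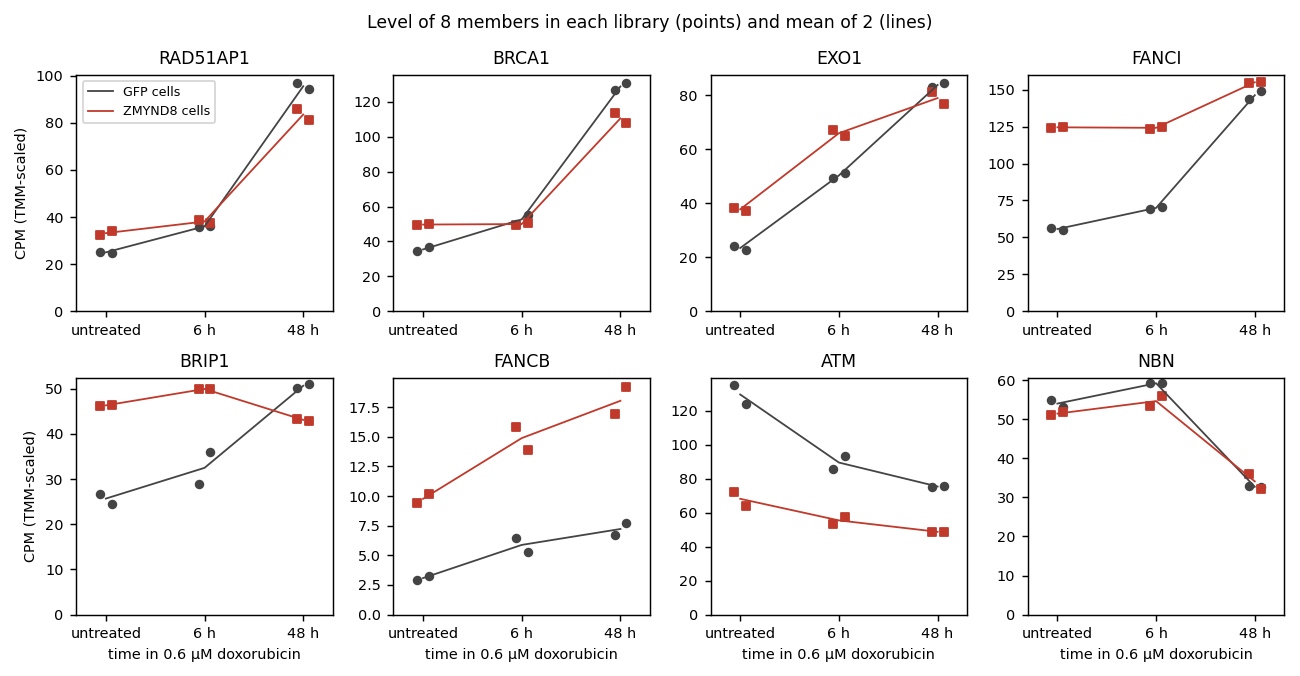
TMM-scaled CPM of 8 of the genes (panels) against time in 0.6 µM doxorubicin, with each library as a point and the mean of 2 libraries as a line, for GFP cells (dark circles) and ZMYND8 cells (red squares). In GFP cells RAD51AP1 and BRCA1 climb mainly between 6 and 48 h, EXO1 climbs in both intervals, ATM falls from 6 h on, NBN only after 6 h, and BRIP1 reaches 50.2 and 51.1 CPM in GFP cells at 48 h but stays at 43.4 and 42.8 CPM in ZMYND8 cells.

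At 6 h in GFP cells, 23 of the 41 genes were called higher and 2 lower, where 22.1% of all genes tested were higher and 25.8% lower (47.9% in all). The median log2 fold change of the 41 was 0.22, against -0.05 over all genes. EXO1 rose most, by 1.10 on the log2 scale (SE 0.06, edgeR adjusted p = 5.75e-14). ATRIP, the partner of ATR, went from 11.4 and 10.2 CPM to 21.4 and 20.5 CPM, a log2 fold change of 0.96 (SE 0.11, edgeR adjusted p = 1.99e-08). FANCB followed with a log2 fold change of 0.93, XRCC2 with 0.93, FANCM with 0.88 and RBBP8 with 0.87. RBBP8 had 56.4 and 53.2 CPM untreated, 99.6 and 100.4 CPM at 6 h and 99.6 and 99.7 CPM at 48 h, with a log2 fold change of -0.01 between the later times. TP53BP1 fell from 59.4 and 61 CPM to 40 and 39.7 CPM (log2 fold change -0.60, SE 0.06, edgeR adjusted p = 1.35e-09) and was back at 56.8 and 57.8 CPM at 48 h. ATM fell by 0.53 on the log2 scale.

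Between 6 and 48 h, 23 of the 41 genes rose further and 7 fell, against 32% and 30.2% of all genes (62.2% in all), or 30 and 2 of the 41 when libraries were scaled by total counts, where 46.4% of all genes were higher and 18% lower. RAD51AP1 rose by 1.40 on the log2 scale in this interval, BRCA1 by 1.29, CHEK2 by 1.24, RAD51C by 1.18, BLM by 1.15 and FANCI by 1.06. CHEK2 was not called at 6 h, with 10.4 and 10.4 CPM untreated, 8.82 and 9.15 CPM at 6 h and 20.3 and 22 CPM at 48 h. NBN fell by 0.86, WRN by 0.73, FANCF by 0.49, ATR by 0.34, FANCE by 0.30 and RIF1 by 0.27 between 6 and 48 h. The falls of FANCF, ATR, FANCE and RIF1 were not called with scaling by total counts, where ATR had a log2 fold change of -0.10 (edgeR adjusted p = 0.231).

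Promoter sequence was taken from RefSeq (GRCh38.p14, 250 bases before to 50 after the start of each gene), which held 37 of the 41 genes. Only the first start listed for a gene was searched, so a motif at another start would be missed. The motif of E2F factors, which drive S-phase genes, was searched on both strands as TTTCCCGC, TTTCGCGC, TTTGCCGC or TTTGGCGC. It was found in 6 of the 37 (16.2%) and in 3.3% of 27305 promoters of the same length. The 27305 were not limited to genes expressed in these cells, so these shares, and those of the motifs below, are for unlike sets of genes. All 6 genes rose in GFP cells at 48 h, as did 28 of the 37 genes with a promoter entry, so the count does not tie the motif to the rise, and a match of letters does not show a bound site. For each of the 6 genes, 28 bases around a match are shown on the strand of the gene, with the motif in capitals. FANCC has 2 matches, and 1 is shown.
XRCC2, chr7:152676103-152676130, minus strand: ggcgttggtgGCGGGAAAgttgagtctc
EXO1, chr1:241848198-241848225, plus strand: aaggtcagccTTTCGCGCgctgtgtagg
FANCA, chr16:89816802-89816829, minus strand: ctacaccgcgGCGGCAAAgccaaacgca
FANCC, chr9:95317864-95317891, minus strand: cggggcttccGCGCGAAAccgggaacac
FANCD2, chr3:10026425-10026452, plus strand: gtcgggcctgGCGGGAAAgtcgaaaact
TOPBP1, chr3:133661931-133661958, minus strand: cgcgcggttgGCGCGAAAgtcggttccc

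Their rises at 48 h in GFP cells ran from 0.36 on the log2 scale for FANCC to 1.84 for EXO1. The CCAAT box, searched as CCAAT, was found in 18 of the 37 (48.6%) against 35.7% of all promoters, and the cell cycle homology region, searched as TTTGAA or TTCGAA, in 7 (18.9%) against 16.6%. The gene with the largest rise and a gene that fell are shown for contrast by the 120 bases before their start, with CCAAT boxes (ATTGG on the other strand) and the cell cycle homology region in capitals. Neither window holds an E2F motif of the letters searched. ATM also has a CCAAT box 188 to 184 bases before its start, beyond the 120 bases shown, so both genes have that box.
RAD51AP1, chr12:4538770-4538889, plus strand: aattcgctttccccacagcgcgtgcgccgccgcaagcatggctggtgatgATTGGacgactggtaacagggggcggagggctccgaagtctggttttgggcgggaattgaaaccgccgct
ATM, chr11:108222947-108223066, plus strand: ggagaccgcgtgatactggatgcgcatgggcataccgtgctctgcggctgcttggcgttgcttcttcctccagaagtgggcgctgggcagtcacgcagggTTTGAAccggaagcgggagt

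Without doxorubicin, ZMYND8 cells already had higher levels of most of these genes than GFP cells. A total of 26 of the 41 were called higher and 4 lower, against 28.7% and 29.5% of all genes tested (58.3% in all), and the median log2 difference was 0.35 against 0 over all genes. In 29 genes both ZMYND8 libraries lay above both GFP libraries, in 5 both lay below and in 7 they overlapped. Over all genes tested, 38% separated upwards and 38.7% downwards in the same way. FANCB, a core complex gene on the X chromosome, had 9.38 and 10.2 CPM in ZMYND8 cells and 2.94 and 3.22 CPM in GFP cells, a log2 difference of 1.67 (SE 0.16, edgeR adjusted p = 5.08e-10). CHEK2 had 25.7 and 22.6 CPM against 10.4 and 10.4 CPM, a log2 difference of 1.21 (SE 0.10, edgeR adjusted p = 4.01e-11). FANCI had 124.2 and 124.8 CPM against 56.3 and 55.1 CPM (log2 difference 1.16, SE 0.05, edgeR adjusted p = 7.90e-18). That level of FANCI without the drug lay close to the 143.5 and 148.9 CPM that GFP cells reached after 48 h. XRCC2 followed with a log2 difference of 1.16, RAD54B with 1.15 and POLQ with 1.06, RAD54B resting on 29 to 81 counts a library.

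ATM was the exception among the larger differences, with 72.2 and 64.1 CPM in untreated ZMYND8 cells against 135.1 and 124 CPM in GFP cells (log2 difference -0.93, SE 0.06, edgeR adjusted p = 1.07e-13). FANCE, ATRIP and CHEK1 were lower in ZMYND8 cells by 0.37, 0.31 and 0.25 on the log2 scale. The call of ATRIP was lost in 6 of 11 alternatives, with adjusted p up to 0.209 in edgeR. The difference between the lines was then followed with the drug. At 6 h 19 of the 41 genes were higher and 5 lower in ZMYND8 cells, against 28.9% and 26.6% of all genes (55.5% in all). FANCB kept a log2 difference of 1.34, RAD54B of 1.09, CHEK2 of 0.97, POLQ of 0.94, BLM of 0.86 and FANCI of 0.83. FANCE, ATRIP, ATM, CHEK1 and RBBP8 were the 5 lower genes, with log2 differences of -0.95, -0.79, -0.69, -0.49 and -0.15.

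At 48 h 11 of the 41 genes (26.8%) were higher and 17 (41.5%) lower in ZMYND8 cells, against 28.4% and 31.6% of all genes (60% in all). The share called higher was thus close to that of all genes. The median log2 difference was -0.09, against -0.04 over all genes. FANCB, with 16.9 and 19.2 CPM against 6.75 and 7.70 CPM, was still the most raised (log2 difference 1.32, SE 0.12, edgeR adjusted p = 3.02e-10). FANCF, at 18.3 and 16.9 CPM against 7.95 and 8.83 CPM, came next (log2 difference 1.07, SE 0.11, edgeR adjusted p = 5.20e-09), then CHEK2 at 0.92, XRCC2 at 0.65, BARD1 at 0.52 and POLQ at 0.49. RAD54L had 22.3 and 20.3 CPM in ZMYND8 cells and 37.1 and 38.9 CPM in GFP cells, the largest difference downwards (log2 difference -0.83, SE 0.10, edgeR adjusted p = 3.05e-08). CHEK1, at 56.1 and 56.7 CPM against 98.6 and 93.8 CPM, had a log2 difference of -0.77 (SE 0.05, edgeR adjusted p = 2.03e-13). FANCD2 followed at -0.73, FANCE at -0.68, FANCA at -0.63 and ATM at -0.63. Of the 26 genes higher in untreated ZMYND8 cells, 8 were lower than in GFP cells at 48 h, namely BRCA1, BRIP1, FANCA, RAD18, RAD51AP1, RBBP8, TOPBP1 and XRCC3.

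**Figure D3:**
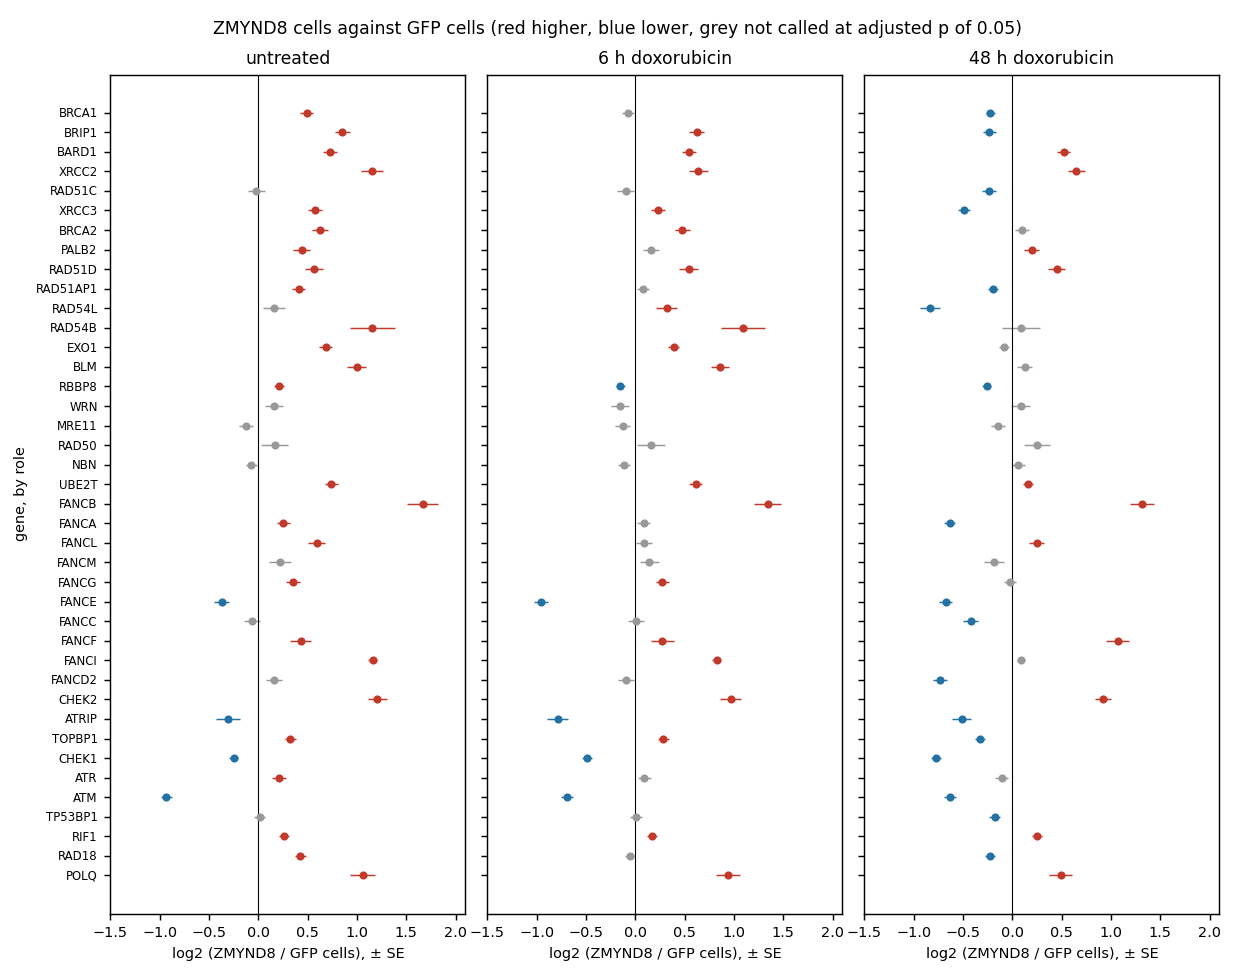
Log2 difference between ZMYND8 and GFP cells (horizontal axis, bars are SE, 2 libraries per condition) for 40 genes grouped by role, without drug, at 6 h and at 48 h. The points shift to the left with time, from 26 higher and 4 lower to 11 higher and 17 lower of the 41 genes tested. Of all genes, 28.7% were higher and 29.5% lower without drug, and 28.4% and 31.6% at 48 h. FANCB and CHEK2 stay to the right and ATM, FANCE and CHEK1 to the left in all 3 panels.

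Within ZMYND8 cells, 48 h of doxorubicin raised 22 of the 41 genes and lowered 7, against 31.6% and 30.8% of all genes (62.3% in all). The split was 26 and 3 with libraries scaled by total counts, against 42.9% and 21.2% of all genes. The median log2 fold change was 0.19, against 0.05 over all genes. RAD51AP1 stood at 32.3 and 34 CPM untreated, 38.6 and 37.6 CPM at 6 h and 85.8 and 81.1 CPM at 48 h (log2 fold change 1.33, SE 0.06, edgeR adjusted p = 2.21e-17). RAD51C rose by 1.17, BRCA1 by 1.15, EXO1 by 1.07, XRCC2 by 0.89 and FANCB by 0.88 on the log2 scale. WRN fell by 0.85 (SE 0.09, edgeR adjusted p = 6.11e-09), from 25.2 and 27.5 CPM to 15.7 and 13.7 CPM. NBN fell by 0.59, ATM by 0.48, ATR by 0.35, CHEK1 by 0.30 and TP53BP1 by 0.26, the last 3 no longer called with scaling by total counts, and RIF1 was the seventh gene called lower. At 6 h in these cells 13 genes were higher and 5 lower, against 21.8% and 19% of all genes (40.8% in all), or 8 and 7 with total counts, against 16% and 24.3% of all genes. EXO1 rose by 0.81, FANCM by 0.80, FANCB by 0.61, RBBP8 by 0.50, ATRIP by 0.48 and XRCC2 by 0.41 at 6 h, and TP53BP1 fell by 0.60, CHEK2 by 0.45, FANCF by 0.42, WRN by 0.36 and ATM by 0.29. In edgeR the ATRIP call was lost without the first ZMYND8 library at 6 h (adjusted p = 0.0785) and the FANCF call without the first untreated ZMYND8 library (adjusted p = 0.0546). CHEK2 had 25.7 and 22.6 CPM untreated, 18.7 and 16.3 CPM at 6 h and 40.5 and 39.8 CPM at 48 h, so it was lower at 6 h and higher at 48 h. Between 6 and 48 h, 17 genes rose and 10 fell, against 30.2% and 31.3% of all genes (61.5% in all), and 29 rose and 2 fell with total counts, against 48.3% and 16.9% of all genes. CHEK2 rose by 1.19, BRCA1 by 1.15, RAD51AP1 by 1.13, RAD51C by 1.05, UBE2T by 0.59 and XRCC2 by 0.48 in that interval. NBN fell by 0.68, ATR by 0.54, FANCM by 0.51, WRN by 0.49, CHEK1 by 0.36 and BRIP1 by 0.21. With total counts FANCM, WRN and CHEK1 were not called and BRIP1 had a log2 fold change of 0.08.

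Whether the drug acted differently in both lines was tested by the interaction, the fold change in ZMYND8 cells minus that in GFP cells. It shares its untreated libraries with the comparison of untreated lines, so both are not independent. At 48 h it was negative and called in 25 of the 41 genes and positive and called in 2, against 15.8% and 12.7% of all genes (28.6% in all), with a median of -0.38 against -0.01 over all genes. BRIP1 had 46.1 and 46.5 CPM in untreated ZMYND8 cells and 43.4 and 42.8 CPM at 48 h, while GFP cells went from 26.8 and 24.6 CPM to 50.2 and 51.1 CPM. The interaction was -1.08 on the log2 scale (SE 0.10, edgeR adjusted p = 5.73e-09). FANCI reached 154.8 and 155.2 CPM in ZMYND8 cells from a level of 124.2 and 124.8 CPM, and its interaction was -1.08 (SE 0.06, edgeR adjusted p = 4.76e-13). Endpoints at 48 h were thus close for FANCI (143.5 and 148.9 CPM in GFP cells, edgeR adjusted p = 0.0724), and the starting levels differed.

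RAD54B, XRCC3, RAD54L and FANCD2 had interactions of -1.07, -1.06, -0.99 and -0.89. For RAD54L and FANCD2 the untreated lines were not called different and the 48 h levels were, FANCD2 reaching 63.4 and 64.5 CPM in GFP cells and 37.8 and 39.1 CPM in ZMYND8 cells from similar starts of 27.3 and 27.7 CPM and 29 and 32.2 CPM. RAD51AP1, BRCA1 and EXO1, which rose most in GFP cells, had interactions of -0.60, -0.71 and -0.77. The interaction subtracts the fold change in GFP cells, so choosing genes by that rise favours negative values. RAD51C, also among the larger rises in GFP cells, was not called. FANCF (0.64) and ATM (0.30) had the positive interactions. ATM fell in both lines and less from its lower start in ZMYND8 cells, and its call was lost without the first untreated GFP library (0.24, edgeR adjusted p = 0.0587) or without the second untreated ZMYND8 library (0.21, edgeR adjusted p = 0.0783). By role, the interaction was called negative in RAD51AP1, RAD54L and RAD54B, in 7 of 9 core genes and 2 of 2 genes of the FANCI-FANCD2 complex, and in none of the MRE11-RAD50-NBN complex or of the 3 chromatin adaptors. At 6 h it was called in 12 genes, all negative, against 5.52% of all genes negative and 7.86% positive (13.4% in all). With total counts it was negative in 14 and positive in 0, against 9.2% and 4.37% of all genes. The largest were FANCE at -0.58, BRCA1 at -0.57, XRCC2 at -0.52, FANCL at -0.51, ATRIP at -0.48 and RAD18 at -0.48, and the call of ATRIP was lost in 8 of 15 alternatives and that of XRCC2 in 4.

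**Figure D4:**
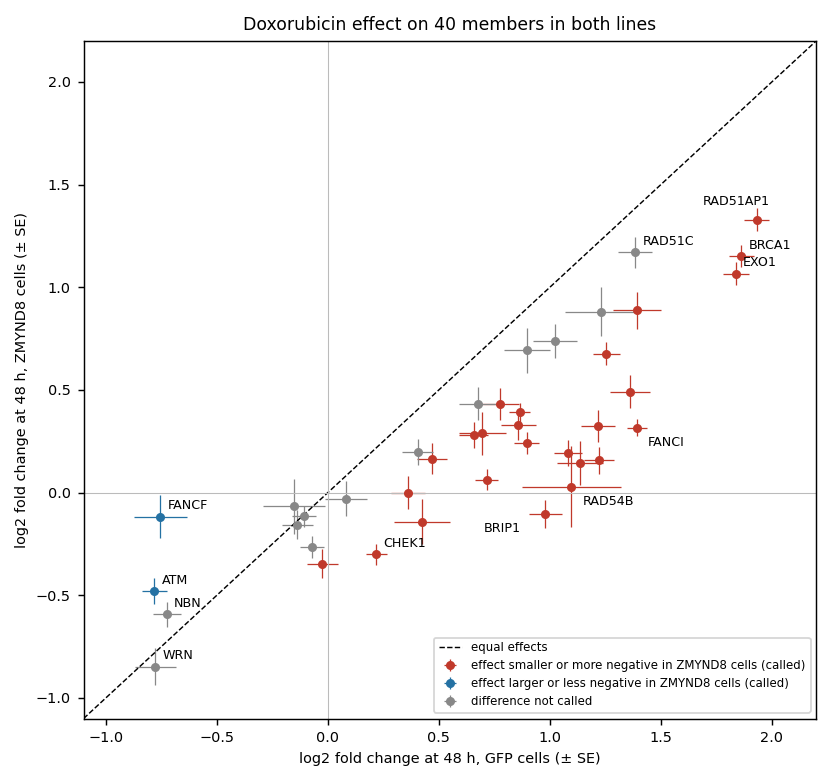
Log2 fold change of 40 genes after 48 h of doxorubicin in GFP cells (horizontal axis) and in ZMYND8 cells (vertical axis), with SE bars from 2 libraries per condition and a dashed line of equal effects. Red points, where the interaction was called negative, lie below the line, BRIP1 at 0.98 in GFP cells and -0.10 in ZMYND8 cells, and the blue points FANCF and ATM lie above it.

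The study's own criterion asks for a p no larger than 0.05 and a log2 change no smaller than 1.5 (inducible) or 1 (transient). The study used the program cuffdiff and does not say whether that p was adjusted. Here the criterion, which selects on size, was put on unadjusted edgeR p-values, and it gave a different picture. In GFP cells at 48 h it took 3 of the 41 genes, RAD51AP1, BRCA1 and EXO1, against 13.2% of all genes, so the 41 genes were not a larger share than the background at that size. FANCB was the 1 gene taken between untreated lines, against 11.4% of all genes. It took 0 of the 41 in the other inducible comparisons, where all genes gave 4.71% for GFP cells at 6 h, 13.1% between 6 and 48 h, 10.6% between the lines at 6 h and 9.44% at 48 h, 2.73%, 12.4% and 12.9% for the same intervals in ZMYND8 cells, and 2.01% and 3.7% for the interactions at 6 and 48 h. In the transient system it took 17 of 40 genes with doxorubicin, against 8.7% of all genes, and 14 in the group labelled for the plasmid, against 9.84%, with 0 between both treated groups, against 0.159%.

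In the transient system, 16 of the 40 genes tested were called higher and 0 lower after 48 h of doxorubicin, against 2.98% and 2.15% of all 15697 genes (5.13% in all). The median log2 fold change of the 40 was 0.81, against 0.00 over all genes. BRCA1 stood at 20.8 and 23.8 CPM in the control and 109 and 98 CPM with the drug (log2 fold change 2.21, SE 0.21, edgeR adjusted p = 0.00357). XRCC2 had 8.01 and 15.5 CPM in the control and 49.5 and 49.6 CPM with the drug (log2 fold change 2.07, SE 0.33, edgeR adjusted p = 0.00919). EXO1 went from 12.2 and 13.6 CPM to 49.8 and 48.9 CPM, FANCD2 from 30.1 and 33.1 CPM to 117.6 and 98.8 CPM and BLM from 8.39 and 11.3 CPM to 34.9 and 30.3 CPM, with log2 fold changes of 1.94, 1.77 and 1.72. These groups did not overlap. RAD54B had 2 and 3 counts in the control libraries and 22 and 105 with the drug, a ratio of 8.73 per scaled count (exact 95% interval 3.64 to 27.3, counting error only), and its edgeR call was lost without the first control library (adjusted p = 0.0682) or without the second doxorubicin library (adjusted p = 0.107). The other 10 genes called higher were POLQ, RAD51AP1, BRCA2, FANCI, BARD1, RBBP8, BRIP1, UBE2T, TOPBP1 and FANCA, with log2 fold changes from 0.97 to 1.67, and 24 genes were not called. Of the genes called higher, FANCA has 23.6% of its exon length opposite ZNF276, BLM 8.5% opposite another gene and FANCI 5.9% opposite POLG. XRCC3, which was not called, has 76.7% opposite KLC1. Reads of both strands may count in such genes. ATM, NBN, WRN and FANCF, the 4 genes that fell in GFP cells, had log2 fold changes of -0.30, -0.38, -0.33 and -0.64 here and were not called. Without the second, deeper doxorubicin library, or without the first control library, fewer of these genes were called. A smaller share of all genes was called as well. The median log2 fold change of these genes was then 0.74 and 0.80.

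The group labelled for the plasmid and treated with the drug differed from the same control libraries in 17 of 40 genes, all higher, against 3.85% and 2.97% of all genes (6.82% in all). BRCA1 stood there at 84.4 and 99.3 CPM, EXO1 at 52.8 and 52 CPM and FANCD2 at 99.8 and 98.5 CPM. Their log2 fold changes from the control were 2.04 (SE 0.21, edgeR adjusted p = 0.00393), 2.02 and 1.65, and XRCC2, BLM and RAD51AP1 followed with 1.80, 1.57 and 1.54. The XRCC2 call was lost in edgeR without the second labelled library (adjusted p = 0.0786). Fewer of these genes, and a smaller share of all genes, were called without either library of this group or without the first control library. The same held without the second libraries of both treated groups. The median log2 fold change of these genes was 0.87 with all libraries. In these fits it was 0.86 (without the first labelled library), 0.78 (second labelled), 0.69 (first control) and 0.78 (both second treated libraries). Against doxorubicin alone, 0 of the 40 genes were called (0% of all genes), 0 at an unadjusted p under 0.05 in edgeR and 0 with DESeq2. The differences ran from -0.80 (RAD54B, SE 0.43) to 0.46 (CHEK2, SE 0.27) on the log2 scale. The second libraries of both treated groups were closely alike and ZMYND8 was not raised, so this comparison cannot show whether ZMYND8 had an effect.

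**Figure D5:**
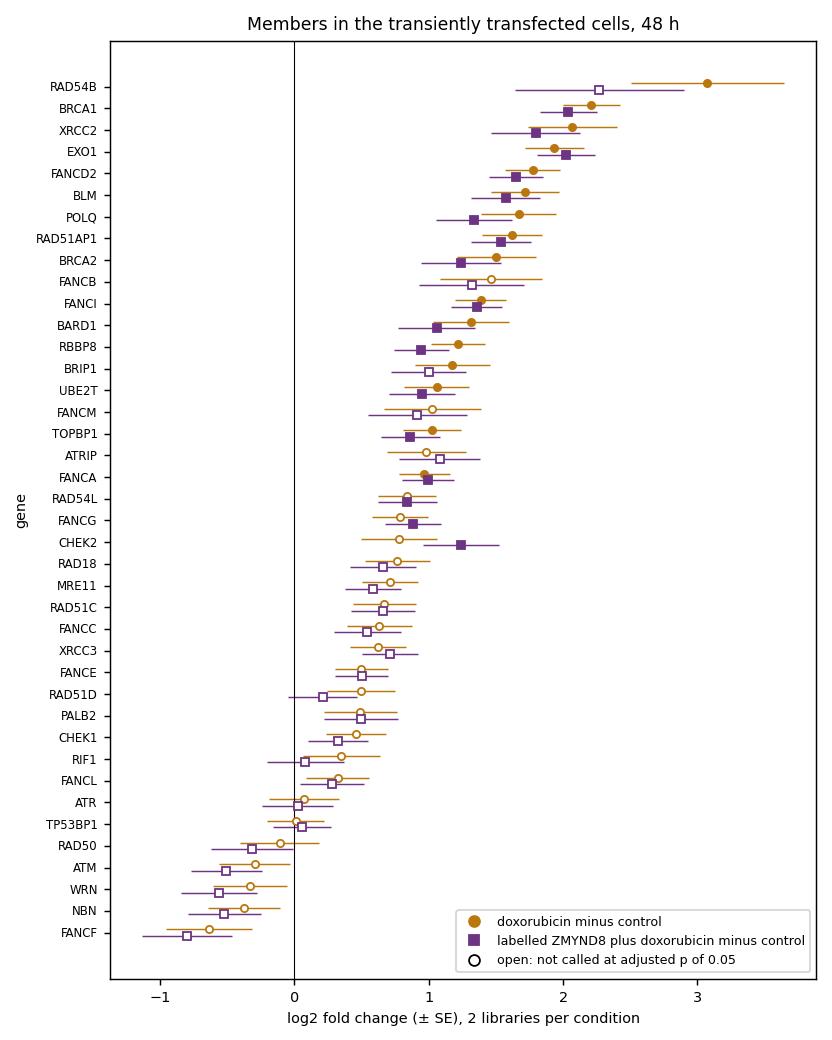
Log2 fold change from the control (horizontal axis, bars are SE, 2 libraries per condition) of 40 genes in the transient system after doxorubicin (circles) and in the drug-treated group labelled for FLAG-ZMYND8 (squares), filled where called. Both drug-treated groups share the control libraries; RAD54B (3.07) and BRCA1 (2.21) are at the top for doxorubicin and FANCF (-0.64) at the bottom, with no gene called lower.

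Lists of other genes of the same pathways were counted in the same way. The shares of all genes called at 48 h in GFP cells were 32.4% higher and 31.8% lower (64.2% in all). At 48 h in GFP cells 14 of 20 other recombination genes were called higher and 3 lower, among them TOP3A, DNA2 and RMI1, which process recombination intermediates, with log2 fold changes of 1.22, 1.55 and 1.34. Of 13 other checkpoint genes tested 9 were higher and 2 lower, with CLSPN at 2.02, CDC25A at 1.99 and PKMYT1 at 1.77. Of 13 other Fanconi genes tested 7 were higher and 5 lower, USP1, which removes ubiquitin from FANCD2 and FANCI, rising by 1.08 and REV3L and FAAP100 falling by 0.60 and 0.45. Of 12 other adaptor genes 5 were higher and 2 lower, with RNF8 at 0.52, PAXIP1 at 0.43 and RNF168 at 0.42, and of 11 genes of non-homologous end joining tested 5 were higher and 4 lower, PARP1 rising by 0.90 and XRCC4 and PRKDC falling by 0.86 and 0.44.

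A list of 20 S-phase and proliferation genes was counted beside the recombination genes. At 48 h in GFP cells 18 of the 20 were higher and 1 lower, against 32.4% and 31.8% of all genes. CDC6, E2F8 and E2F1 had log2 fold changes of 2.15, 2.59 and 1.65. The list also had other levels at the other times and in the other line. The summed level of the 20 was 2522 to 2594 CPM in untreated GFP cells, 3303 to 3343 CPM at 6 h and 4957 to 4980 CPM at 48 h. In ZMYND8 cells it was 3345 to 3363, 3623 to 3642 and 4079 to 4115 CPM. The interaction at 48 h was called negative in 18 of the 20 and positive in 0, against 15.8% and 12.7% of all genes. In untreated ZMYND8 cells 12 were higher and 6 lower than in GFP cells, against 28.7% and 29.5% of all genes. In the transient system 15 were higher and 0 lower with doxorubicin, against 2.98% and 2.15% of all genes. None of the 20 was at 0 in any inducible library. The part of these genes in the results for the 41 was not tested.

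The length of the gene was also set beside its change, as a description. The 11 genes that span 100 kb or more had a median log2 fold change of 0.43 in GFP cells at 48 h and the 30 shorter genes 0.88, with Spearman's rho of -0.19 across the 41 genes, which are not independent replicates. In ZMYND8 cells at 48 h the medians were -0.10 and 0.28 (rho -0.33), and at 6 h in GFP cells 0.10 and 0.26 (rho -0.09). The 4 genes that fell in GFP cells span 2.95 kb (FANCF) to 147 kb (ATM).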

How the data were processed

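The deposited values were raw counts per gene, 1 table per system, which the authors made with featureCounts 1.6.4 on hg38 with GENCODE 31, reverse-stranded, on read pairs and without multi-mapping pairs (per the file headers). The submitters' processing notes name HISAT2, Trim Galore and DESeq2, whereas the study's methods name TopHat as the aligner, and the aligner was not settled here. All 18 libraries, 2 in each of 9 conditions, were used, grouped by their labels, and 0 sample columns were left out. Total counts set the precision, and genes with few counts, such as MDC1 and RAD54B, were measured least well.

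Counts were analysed per system in R 4.3.3 with edgeR 4.0.16 (filterByExpr, TMM, quasi-likelihood fit with 1 mean per condition, Benjamini-Hochberg adjustment over all genes tested, threshold 0.05). The SE was the log2 fold change over the square root of F. Figures used matplotlib 3.10.9, and the script was tested on simulated data. The text names at most 6 rises and 6 falls per comparison in full, among called genes with a mean log2 CPM of at least 1, and at most 3 genes of each other list, those with the smallest adjusted p in GFP cells at 48 h. Alternatives were the study's criterion, a minimum log2 fold change of 0.5, DESeq2 1.42.0 and its size factors, scaling by total counts, no filter, at least 10 counts in every library, a replicate block, the compared groups alone, and each library left out in turn. The 41 genes and the other lists were chosen with earlier results of these data known. A further gene of homologous recombination is not reported here.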

Additional observations from a re-analysis of the deposited data

Results flagged for a closer look

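A result was singled out where the doxorubicin effect differed between the lines by the test of the interaction itself (edgeR, adjusted p of at most 0.05 over all genes). Groups of 2 libraries are too small to test for an outlying library. At 6 h there were 12 such genes, all with a smaller log2 fold change in ZMYND8 cells, and the interactions on the log2 scale were FANCE -0.58, BRCA1 -0.57, XRCC2 -0.52, FANCL -0.51, ATRIP -0.48, RAD18 -0.48, RBBP8 -0.36, XRCC3 -0.34, FANCI -0.33, RAD51AP1 -0.33, EXO1 -0.29, CHEK1 -0.24. Over all genes tested, the interaction was called negative in 5.52% and positive in 7.86% at 6 h, and in 15.8% and 12.7% at 48 h. At 48 h there were 25 genes with a negative interaction. The 13 furthest from 0 were BRIP1 -1.08, FANCI -1.08, RAD54B -1.07, XRCC3 -1.06, RAD54L -0.99, FANCD2 -0.89, FANCA -0.89, BLM -0.87, EXO1 -0.77, BRCA1 -0.71, TOPBP1 -0.65, RAD18 -0.65, RAD51AP1 -0.60. The other 12 were UBE2T -0.58, POLQ -0.57, BRCA2 -0.53, CHEK1 -0.52, XRCC2 -0.51, RBBP8 -0.47, FANCM -0.41, FANCG -0.38, FANCC -0.36, FANCL -0.35, ATR -0.32, FANCE -0.30. FANCF had a positive interaction of 0.64 and ATM of 0.30. The untreated libraries of both lines enter the interaction and the comparison of untreated lines alike. The summed level of the 20 S-phase and proliferation genes also had a smaller difference over 48 h in ZMYND8 than in GFP cells, and its part in these results was not tested.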

How the results depend on the processing

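Among recomputed counts of called genes, 166 stayed within 1.5 times the reported count and 27 moved. Among recomputed values of named genes, 1391 kept their direction and call, 38 lost the call and 1 turned, BRIP1 in ZMYND8 cells between 6 and 48 h, at a log2 fold change of 0.0754 with scaling by total counts. With the study's criterion the counts became 3 for GFP cells at 48 h, 1 between untreated lines and 0 in each other inducible comparison. With a minimum log2 fold change of 0.5 they became 14 (GFP cells, 6 h) and 19 (6 to 48 h), against 24.1% and 38.7% of all genes. Between the lines they became 16, 14 and 12 (untreated, 6 h and 48 h), against 34.8%, 31.8% and 36.3% of all genes. In ZMYND8 cells they became 5, 11 and 8 (6 h, 48 h and 6 to 48 h), against 15.4%, 38.9% and 37.4%. For the interaction at 6 h the count became 4, against 4.02% of all genes.

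With a library left out in turn, counts ran from 23 to 24 (GFP cells, 6 h), 33 to 35 (48 h) and 28 to 30 (6 to 48 h), 28 to 31, 22 to 23 and 25 to 28 between the lines, 15 to 17, 24 to 27 and 21 to 27 in ZMYND8 cells, 9 to 13 and 24 to 26 for the interactions at 6 and 48 h, and in the transient system 8 to 17 with doxorubicin, 7 to 16 in the group labelled for the plasmid and 0 between both. In the transient comparisons with the control, the share of all genes called also fell in each of these fits. It fell as well without both second treated libraries. Replicate numbers are shared across groups, but the labels tie them to nothing. Same-numbered inducible libraries deviated with correlations of -0.05 to 0.02 and transient ones of 0.21 to 0.40. The replicate block gave 26 genes with doxorubicin in the transient system against 16 without it, and moved no other count by over 1.5 times (24 against 17 in the labelled group). The block also raised the share of all genes called, from 5.13% to 15.4% with doxorubicin and from 6.82% to 17.8% in the labelled group. In the transient system 5 of 6 libraries held at most 5972396 counts, and libraries of a group also differed more (chi-square over degrees of freedom 10.68 to 22.66, against 2.194 to 5.211 in the inducible system).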
